A study of Mus musculus with 87 samples.

Results

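The naive pluripotency transcription factors described here are 10 genes, chosen by name as a group and matched by Ensembl ID among the 55450 gene IDs counted in mouse embryonic stem (ES) cells. They are Nanog (ENSMUSG00000012396), Klf4 (ENSMUSG00000003032), Klf2 (ENSMUSG00000055148), Klf5 (ENSMUSG00000005148), Esrrb (ENSMUSG00000021255), Tfcp2l1 (ENSMUSG00000026380), Zfp42 (ENSMUSG00000051176), Tbx3 (ENSMUSG00000018604), Nr0b1 (ENSMUSG00000025056) and Prdm14 (ENSMUSG00000042414). All 10 passed the filter on low counts, and none had fewer than 482 counts in any library. The study asked which subunits of Polycomb repressive complex 2 (PRC2) the complex needs to find its sites. Its RNA part holds 24 libraries, 3 for each of 8 genotypes: a knockout (KO) of a core subunit, Suz12 KO; a KO of the 3 Pcl genes together, Pcl1-3 KO, alone or with a second loss as Pcl1-3 + Epop KO and Pcl1-3 + Jarid2 KO; Jarid2 + Aebp2 KO with the Pcl genes intact; the joint Pcl1-3 + Jarid2 + Aebp2 KO; the same with Epop lost as well, Pcl1-3 + Jarid2 + Aebp2 + Epop KO; and wild type (WT). The genotype that lacks all 6 non-core subunits is called the non-core KO below. All cells grew on gelatin in 2i medium, and no other treatment is named. The strain label changes with the genotype, 129B6F1 for WT and the same name with another last digit for each knockout. Whether these labels stand for different strains is not known; if they do, strain and genotype cannot be told apart. Nothing in the labels states if replicate libraries represent different cultures or different clones; each p-value therefore reflects library-to-library spread alone, possibly technical.

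PRC2 is a chromatin enzyme that methylates lysine 27 of histone H3 and is linked to gene silencing. SUZ12 belongs to its catalytic core, PCL1-3 (Phf1, Mtf2 and Phf19) and EPOP join one form of the complex, and JARID2 and AEBP2 join the other. The naive factors form the network that holds ES cells in a state like the early epiblast. The 2i inhibitors block the kinases MEK and GSK3: loss of MEK signalling favours Klf2 protein, and loss of GSK3 activity relieves the repressor Tcf7l1 at Esrrb and other genes. LIF acting through STAT3 feeds Klf4 and Tfcp2l1, while Prdm14 restrains FGF receptor signalling and the DNA methyltransferases.

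Total counts per library ran from 10148155 to 28442061, and the 10 genes took between 0.303% and 0.417% of them. The lowest share was in replicate 3 of the non-core KO. The files do not pair other Ensembl IDs with symbols, so the targeted genes in their own knockouts and RNA markers of other cell types were not analysed here. The naive factors themselves were counted in every library, with Nanog at 7593 counts or more. This does not show whether cells of other types were present as well. In these bulk samples fewer cells of a type and less RNA per cell cannot be told apart. Values are CPM, read counts scaled to library size, here after TMM (trimmed mean of M values) scaling. They are not per length, so levels are compared between genotypes and not between genes. A gene was called at a Benjamini-Hochberg adjusted p under 0.05 from edgeR, over the 14650 genes tested. The replicate number was left out of this fit, although libraries with the same number deviated together across genotypes. Calls with the number added as a block are given near the end.

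Of the 10 genes, Esrrb alone had a deposited SUZ12 peak within 1 kb of its body, against 24.2% of 21887 protein-coding genes. Esrrb was also the 1 member with JARID2 peaks in that window, against 14.3% of genes. PCL2 peaks lay within 1 kb of 4 members (Esrrb, Klf4, Klf5 and Tbx3), against 42% of genes. The lists were deposited for the whole series, without scores or replicates, and hold 7796 SUZ12, 4991 JARID2 and 20003 PCL2 peaks.

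Esrrb encodes an orphan nuclear receptor that activates other genes of the naive network. The gene lies on the plus strand at chr12:86361117-86521628 (mm10), with an lncRNA gene, Gm40483, annotated inside its span. The SUZ12 peak at chr12:86420566-86423979 was 3414 bp wide and lay inside the gene, away from its upstream end. It was wider than 90% of the SUZ12 peaks. A JARID2 peak of 2146 bp (chr12:86421371-86423516) and a PCL2 peak of 3383 bp (chr12:86420844-86424226) overlapped it, the PCL2 peak being wider than 96% of its list. Smaller JARID2 and PCL2 peaks of 328 and 368 bp lay upstream at chr12:86402774-86403101 and chr12:86402702-86403069, and a further PCL2 peak of 316 bp at chr12:86415496-86415811. RefSeq annotates 2 starts in Esrrb, and it was the second, internal start that lay under all 3 wide peaks.

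**Figure D1:**
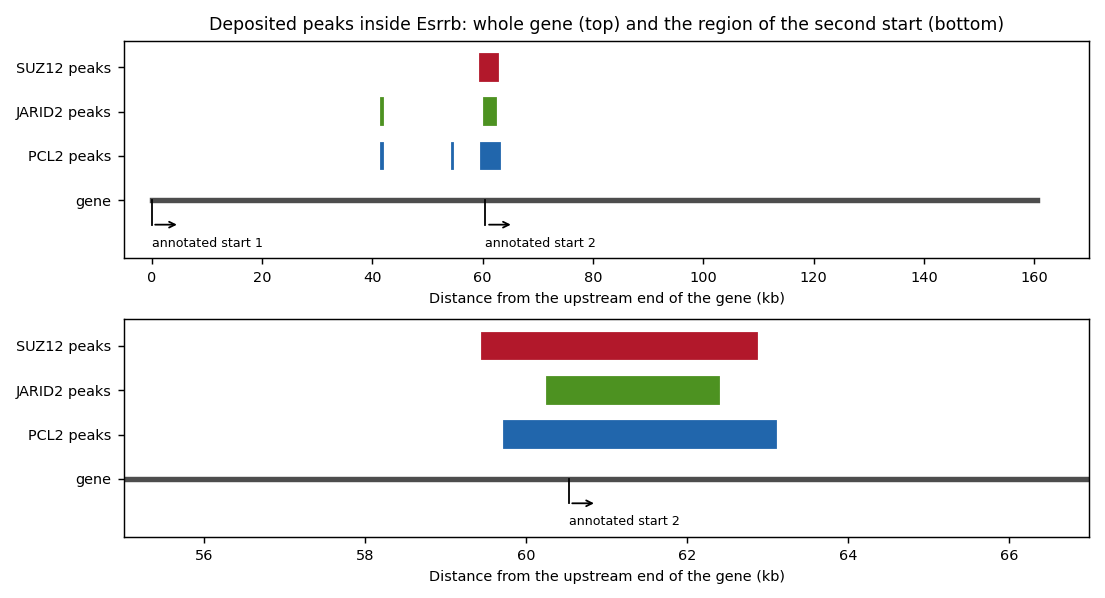
Deposited peaks along Esrrb, as distance in kb from the upstream end of the gene, for the whole gene (upper panel) and around the second annotated start (lower panel). Bars are SUZ12, JARID2 and PCL2 peaks, of which the wide ones of 3414, 2146 and 3383 bp share the second start, while no bar lies at the first start.

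The 250 bases before each Esrrb start are shown because the wide peaks cover the second and not the first; sequences are from RefSeq, GRCm38.p6, plus strand, with CG pairs in capitals. The first stretch is chr12:86360867-86361116 and the second chr12:86421394-86421643.
Esrrb start 1: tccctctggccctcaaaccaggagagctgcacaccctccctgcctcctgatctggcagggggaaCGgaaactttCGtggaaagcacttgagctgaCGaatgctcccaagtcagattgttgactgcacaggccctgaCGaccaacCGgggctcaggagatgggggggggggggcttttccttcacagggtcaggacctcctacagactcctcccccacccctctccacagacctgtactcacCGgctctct
Esrrb start 2: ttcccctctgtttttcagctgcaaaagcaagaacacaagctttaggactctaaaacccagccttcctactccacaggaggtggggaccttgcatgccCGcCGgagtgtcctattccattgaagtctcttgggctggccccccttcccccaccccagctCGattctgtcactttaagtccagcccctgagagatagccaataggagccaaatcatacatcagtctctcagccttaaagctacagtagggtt
The stretch under the peaks held 3 CG pairs and the one outside them 6. The median over 32851 RefSeq promoters of this length was 6, and it was 18 for the 4436 promoters under a SUZ12 peak and 4 for the 28415 others. The second Esrrb start therefore had fewer CG pairs than most promoters under SUZ12 peaks.

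The PCL2 peaks at the other 3 genes crossed an end of the gene. At Klf4, a Krüppel-like factor used to reprogram somatic cells, the peak chr4:55532354-55532778 was 425 bp wide, with its centre at -91 bp from the 5′ end (gene at chr4:55527137-55532475, minus strand). At Klf5, a related factor whose role overlaps with Klf2 and Klf4, a peak of 619 bp (chr14:99298328-99298946) crossed the lower-coordinate end of the gene (chr14:99298691-99313412). At Tbx3, a T-box factor of naive cells, a peak of 534 bp (chr5:119670418-119670951) did the same (gene at chr5:119670534-119684724, overlapped by the lncRNA gene Tbx3os1). None of the 3 had a SUZ12 or JARID2 peak within 1 kb, and the nearest SUZ12 peak lay 63373 bp from Tbx3 and 118225 bp from Klf4.

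The promoters of Klf4 and Klf2 are shown together because they held the most CG pairs of the 7 members with a promoter stretch yet differed in PCL2. That of Nr0b1 is shown because its RNA changed most. Klf4 is the reverse complement of chr4:55532476-55532725, Klf2 is chr8:72318812-72319061 and Nr0b1 is chrX:86191525-86191774, both of these on the plus strand. CG pairs are in capitals.
Klf4: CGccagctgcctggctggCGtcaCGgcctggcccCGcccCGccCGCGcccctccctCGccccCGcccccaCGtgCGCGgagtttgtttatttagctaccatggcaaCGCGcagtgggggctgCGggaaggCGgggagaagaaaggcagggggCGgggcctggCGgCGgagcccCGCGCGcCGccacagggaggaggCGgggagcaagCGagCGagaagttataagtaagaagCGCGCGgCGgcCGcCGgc
Klf2: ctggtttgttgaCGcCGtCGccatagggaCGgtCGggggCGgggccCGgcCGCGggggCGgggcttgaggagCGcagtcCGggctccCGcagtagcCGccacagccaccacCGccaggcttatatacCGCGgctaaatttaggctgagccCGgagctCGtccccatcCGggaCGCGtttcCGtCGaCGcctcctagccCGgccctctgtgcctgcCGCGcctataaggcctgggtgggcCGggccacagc
Nr0b1: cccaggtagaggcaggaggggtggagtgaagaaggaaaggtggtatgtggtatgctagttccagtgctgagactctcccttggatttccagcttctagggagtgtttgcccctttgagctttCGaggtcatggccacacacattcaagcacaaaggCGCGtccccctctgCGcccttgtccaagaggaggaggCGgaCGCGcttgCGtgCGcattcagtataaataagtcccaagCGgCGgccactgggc
Klf4 held 32 CG pairs, more than 95.4% of promoters, and Klf2 held 29, more than 93.2%. Klf4 lay under a PCL2 peak, whereas the nearest PCL2 peak to Klf2 (chr8:72319062-72321654) was 13729 bp away and the nearest SUZ12 peak 170473 bp away. Nr0b1 (chrX:86191775-86195947) held 11 CG pairs, and no listed peak came near it: the nearest PCL2 peak was 922196 bp away and the nearest SUZ12 peak 7088028 bp away. Promoters under a PCL2 peak had a median of 17 CG pairs (7423 promoters), against 4 in the 25428 others.

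The remaining members had no listed peak within 1 kb. The nearest PCL2 peak was 12137 bp from Zfp42 (chr8:43295067-43307009), 78463 bp from Nanog (chr6:122707489-122714633), 105833 bp from Tfcp2l1 (chr1:118627923-118685168) and 120492 bp from Prdm14 (chr1:13113428-13127163). The octamer ATGCAAAT, a site of OCT factors, was found in the promoter stretch of 1 of the 7 members that RefSeq gives one for, Zfp42, and in 1.6% of all promoters. Both strands were searched for this exact string alone, so OCT sites that differ from it were not counted. Zfp42 (Rex1) is a zinc-finger gene used as a marker of naive cells; its stretch is the reverse complement of chr8:43307010-43307259, shown with the octamer, read here on the other strand, in capitals.
Zfp42: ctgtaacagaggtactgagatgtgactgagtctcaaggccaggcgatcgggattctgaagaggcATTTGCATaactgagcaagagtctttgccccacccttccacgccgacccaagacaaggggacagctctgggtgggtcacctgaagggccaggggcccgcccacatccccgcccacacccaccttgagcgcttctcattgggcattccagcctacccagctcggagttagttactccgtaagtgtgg
The other motifs searched were CACCC (KLF factors, 52% of all promoters), AAGGTCA (ESRRB, 4.08%) and TTCNNNGAA (STAT3, 7.02%). CACCC was in the stretches of Klf2, Zfp42 and Nr0b1, both of Esrrb and the second of Nanog, and not in those of Klf4 and Tfcp2l1. AAGGTCA was in none of the members' stretches and TTCNNNGAA in the first Esrrb stretch alone.

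Peaks near other genes of the network and its signals were counted in the same way, beside the 24.2% of all genes with a SUZ12 peak and the 42% with a PCL2 peak; no test between lists was made. All 12 genes of a list of primed epiblast genes, such as Fgf5, Otx2 and Dnmt3b, had both a SUZ12 and a PCL2 peak within 1 kb. Of 10 further naive genes, Dppa3 and Gbx2 had both. In a list of 10 core pluripotency genes, 2 had SUZ12 peaks (Foxd3 and Utf1) and 3 had PCL2 peaks. Among the upstream signals, SUZ12 peaks lay near 2 of 7 LIF-STAT3 genes, 3 of 8 Wnt-GSK3 genes including Tcf7l1, and 4 of 13 FGF-ERK genes including Dusp6 and Spry4.

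In RNA, Nr0b1 and Klf2 were the members that fell most often, Prdm14, Tbx3 and Klf4 rose in some knockouts, and Esrrb and Klf5 fell in the non-core KO. Nanog, Tfcp2l1 and Zfp42 were not called in any of the 12 comparisons as fitted, although Tfcp2l1 was called in the non-core KO against WT without the filter on low counts (edgeR adjusted p = 0.0107), and a few calls of all 3 genes appeared under other alternatives. Nr0b1 differed most between genotypes, its highest mean being 2.35 times its lowest, followed by Klf2 at 1.92 times. For Nanog this ratio was 1.29.

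**Figure D2:**
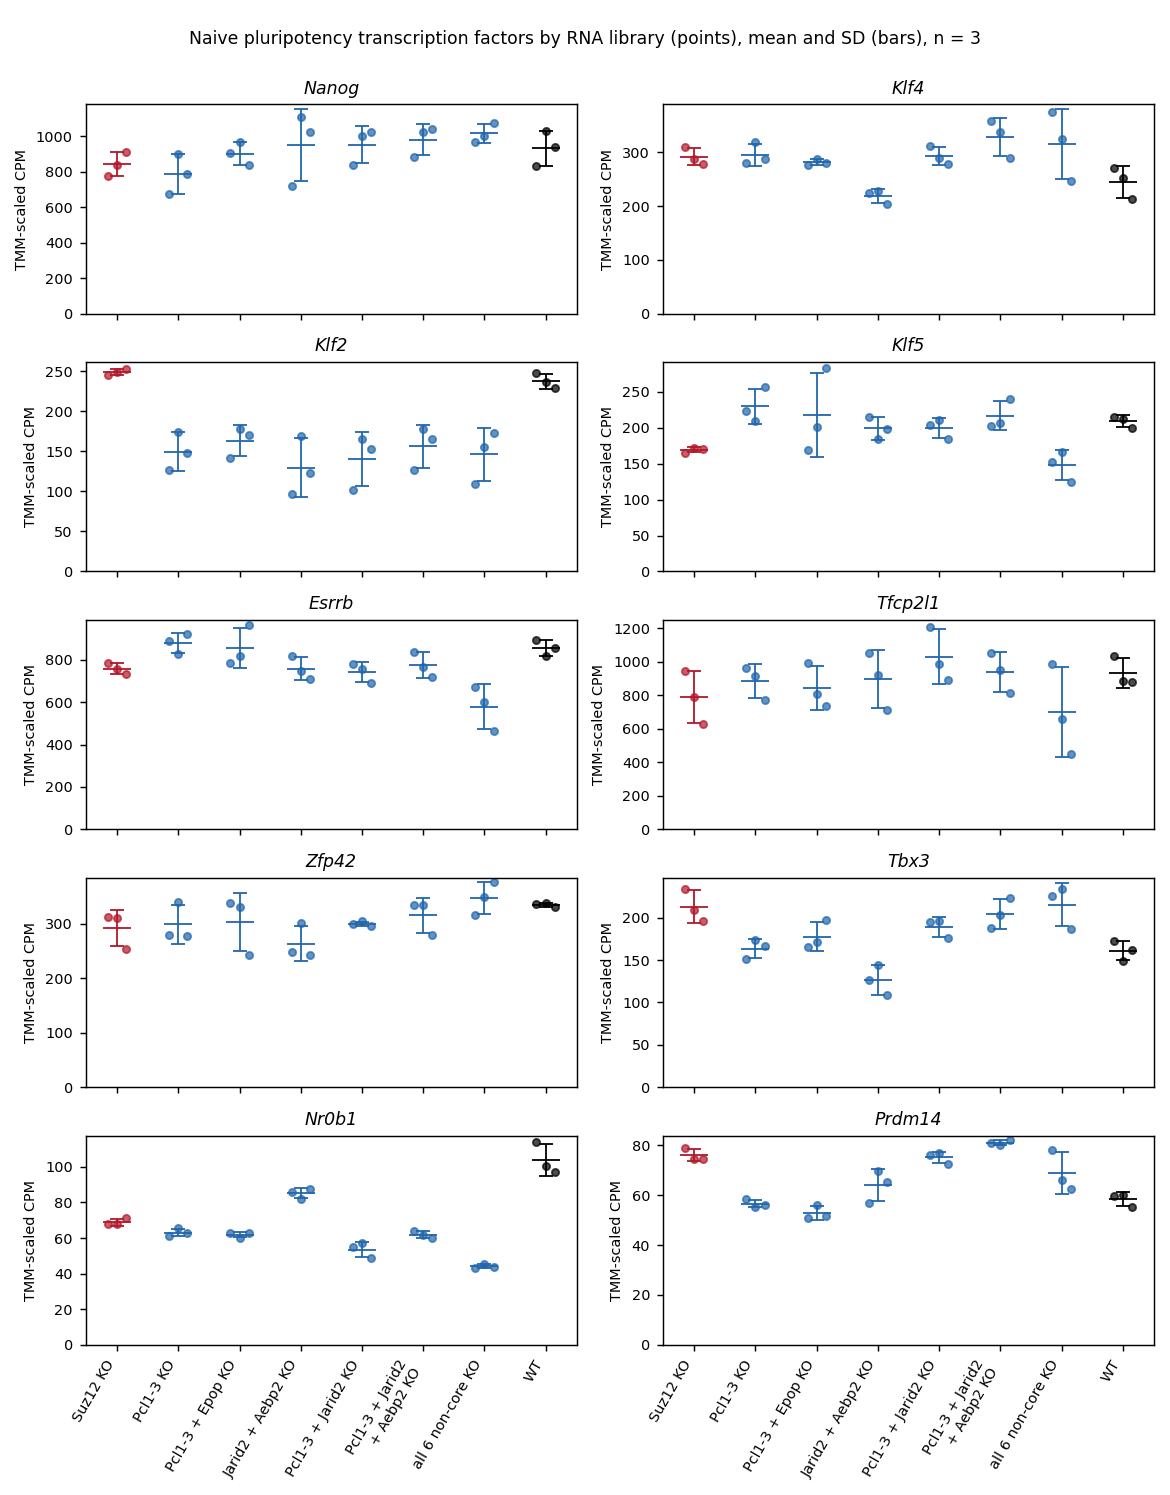
TMM-scaled CPM of the 10 genes in each of the 24 libraries (points), with the mean and SD of 3 libraries (bars), for 7 knockouts and WT, each axis starting at 0. Nr0b1 lies below WT in every knockout, and Klf2 lies below WT in every knockout except Suz12 KO.

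Nr0b1 (Dax1) is an X-linked orphan nuclear receptor without a classical DNA-binding domain that acts with OCT4 and other factors of the network. It was called lower than WT in all 7 knockouts. It had 67.9, 67.8 and 71.2 CPM in Suz12 KO and 43.3, 45.5 and 43.6 CPM in the non-core KO, against 114, 100.2 and 97.3 CPM in WT. Pcl1-3 KO had 61.2, 65.5 and 62.6 CPM, Pcl1-3 + Epop KO 62.8, 60.1 and 63.0 CPM, and Jarid2 + Aebp2 KO 86.0, 81.9 and 87.5 CPM. Pcl1-3 + Jarid2 KO had 54.7, 57.0 and 49.0 CPM and Pcl1-3 + Jarid2 + Aebp2 KO 64.0, 61.8 and 59.8 CPM. Every knockout library was below every WT library. In order of its means, Nr0b1 was highest in WT, then in Jarid2 + Aebp2 KO, then in Suz12 KO, and lowest in the non-core KO. Pcl1-3 KO, Pcl1-3 + Epop KO and Pcl1-3 + Jarid2 + Aebp2 KO followed Suz12 KO and overlapped one another, and Pcl1-3 + Jarid2 KO stood below them.

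The log2 fold change of Nr0b1 against WT was -1.23 ± 0.08 (SE) in the non-core KO, a level 2.35-fold lower (edgeR adjusted p = 6.32e-10). It was -0.59 ± 0.08 in Suz12 KO (edgeR adjusted p = 7.57e-06) and -0.96 ± 0.08 in Pcl1-3 + Jarid2 KO (edgeR adjusted p = 6.41e-08). In Pcl1-3 KO, Pcl1-3 + Epop KO and Pcl1-3 + Jarid2 + Aebp2 KO it was -0.72, -0.74 and -0.75 (edgeR adjusted p = 7.31e-06, 5.54e-06 and 1.45e-06). These 6 calls of Nr0b1 held under all 11 alternatives. In Jarid2 + Aebp2 KO the log2 fold change was -0.29 ± 0.08 (edgeR adjusted p = 0.0432), and this call was lost in 7 of 11 alternatives. It was lost without WT replicate 1 (log2 fold change -0.21, edgeR adjusted p = 0.264), without WT replicate 2 (0.0786) and without replicate 1, 2 or 3 of Jarid2 + Aebp2 KO (0.103, 0.0926 and 0.148). The non-core KO was also below Suz12 KO in Nr0b1, by a log2 fold change of -0.64 ± 0.08 (edgeR adjusted p = 2.37e-06).

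Klf2 is a Krüppel-like factor that helps ES cells persist in 2i medium. It had 109, 156 and 173 CPM in the non-core KO and 245, 249 and 253 CPM in Suz12 KO, against 247, 236 and 229 CPM in WT. Jarid2 + Aebp2 KO had the lowest mean, with 96.3, 169 and 123 CPM. Pcl1-3 KO had 127, 174 and 148 CPM, Pcl1-3 + Epop KO 141, 178 and 170.5 CPM, Pcl1-3 + Jarid2 KO 102, 166 and 153 CPM and Pcl1-3 + Jarid2 + Aebp2 KO 126.5, 178 and 164.8 CPM. All libraries of these 6 knockouts were below the WT libraries, while Suz12 KO overlapped WT. The 6 overlapped one another.

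Against WT the log2 fold change of Klf2 was -0.70 ± 0.20 in the non-core KO (edgeR adjusted p = 0.00979) and 0.07 ± 0.20 in Suz12 KO (95% interval -0.32 to 0.45, edgeR adjusted p = 0.811). The non-core KO was below Suz12 KO by -0.77 ± 0.20 (edgeR adjusted p = 0.0035), and both calls that involve the non-core KO held under all 11 alternatives. Klf2 was also called in Pcl1-3 KO (-0.67, edgeR adjusted p = 0.0388), Jarid2 + Aebp2 KO (-0.87, 0.0172), Pcl1-3 + Jarid2 KO (-0.76, 0.011) and Pcl1-3 + Jarid2 + Aebp2 KO (-0.60, 0.0438). In Pcl1-3 + Epop KO it was -0.54 ± 0.20 and was not called (edgeR adjusted p = 0.099; 0.0032 without the filter on low counts). The other 5 knockouts were not tested against Suz12 KO.

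Those 4 further calls of Klf2 depended on single libraries. In Pcl1-3 KO the call was lost without any 1 WT library (edgeR adjusted p = 0.127, 0.0873 and 0.0678) or without its own replicate 1 (0.165) or 3 (0.134). In Pcl1-3 + Jarid2 + Aebp2 KO it was lost without any 1 WT library (0.109, 0.092 and 0.0702) or without its own replicate 1 (0.16) or 3 (0.0877). In Jarid2 + Aebp2 KO it was lost without WT replicate 1 (0.0805) or its own replicate 1 (0.0864) or 3 (0.0942), and in Pcl1-3 + Jarid2 KO without its own replicate 1 (0.0682). Klf2 also moved with the replicate number: its mean log2 deviation from the genotype means was -0.24 over the replicates numbered 1, 0.17 over those numbered 2 and 0.06 over those numbered 3.

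**Figure D3:**
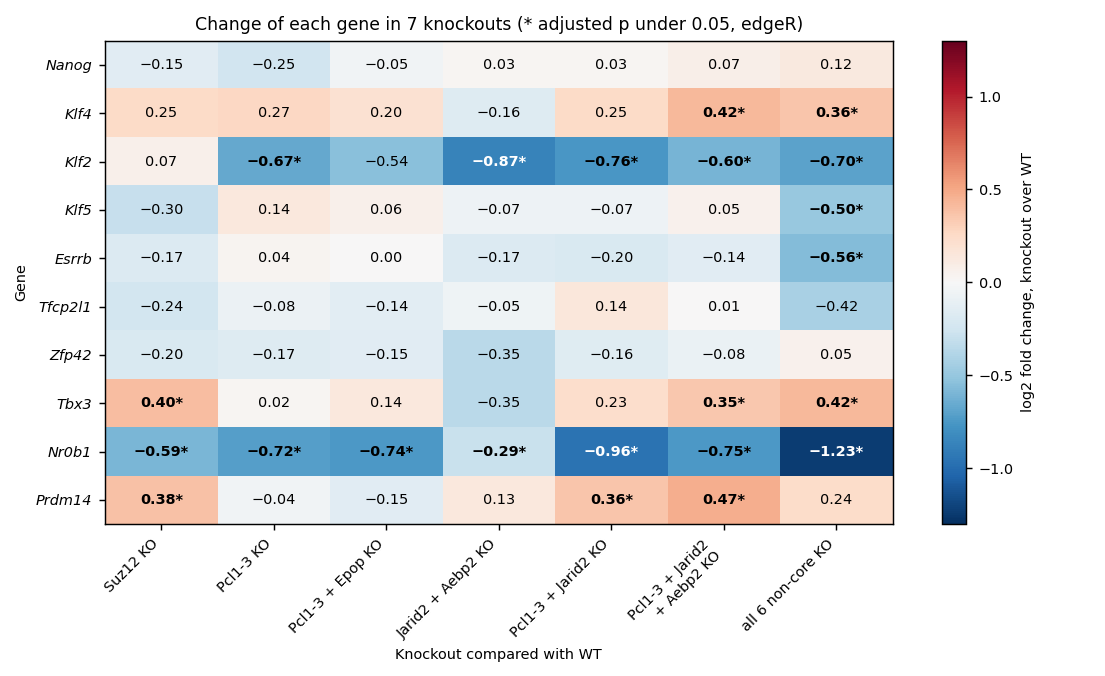
Log2 fold change of each of the 10 genes (rows) in each of 7 knockouts over WT (columns), with an asterisk where the edgeR adjusted p was under 0.05. Nr0b1 runs between -0.29 and -1.23 and is starred in every column, and the Nanog row has no star.

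Prdm14 is a PR-domain factor that represses FGF signalling and DNA methylation genes. It had 78.8, 74.7 and 74.6 CPM in Suz12 KO, 76.0, 76.8 and 72.6 CPM in Pcl1-3 + Jarid2 KO and 81.1, 79.9 and 82.3 CPM in Pcl1-3 + Jarid2 + Aebp2 KO, against 59.7, 60.2 and 55.3 CPM in WT. All libraries of these 3 knockouts were above all WT libraries. The log2 fold changes were 0.38 ± 0.09, 0.36 ± 0.09 and 0.47 ± 0.09 (edgeR adjusted p = 0.0022, 0.00826 and 0.00109). The call in Pcl1-3 + Jarid2 KO was lost without WT replicate 3 (edgeR adjusted p = 0.0531) and without the filter on low counts; the other 2 held under all 11 alternatives. The non-core KO had 78.1, 66.1 and 62.3 CPM of Prdm14, also above all WT libraries, but was just short of a call (log2 fold change 0.24 ± 0.09, edgeR adjusted p = 0.0502). This change of Prdm14 was called in 4 of 11 alternatives, among them DESeq2 (adjusted p = 0.0277), scaling by DESeq2 size factors (edgeR adjusted p = 0.048) and the fit without replicate 3 of the non-core KO (edgeR adjusted p = 0.019). Pcl1-3 KO (58.3, 55.4 and 56.1 CPM), Pcl1-3 + Epop KO (50.7, 56.1 and 51.6 CPM) and Jarid2 + Aebp2 KO (56.9, 69.8 and 65.5 CPM) overlapped WT.

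Tbx3 had 234, 209.7 and 196 CPM in Suz12 KO and 226, 234 and 187 CPM in the non-core KO, against 173, 149.5 and 162 CPM in WT. It was called higher in both, with log2 fold changes of 0.40 ± 0.12 and 0.42 ± 0.12 (edgeR adjusted p = 0.00836 and 0.00801). The call in Suz12 KO held under all 11 alternatives, and that in the non-core KO was lost without its replicate 2 (edgeR adjusted p = 0.0532). Tbx3 had 188, 204 and 224 CPM in Pcl1-3 + Jarid2 + Aebp2 KO, a log2 fold change of 0.35 ± 0.12 (edgeR adjusted p = 0.0463). That call was lost in 8 of 11 alternatives, among them the removal of any 1 WT library (edgeR adjusted p = 0.0763, 0.164 and 0.12) or of its own replicate 2 (0.0926) or 3 (0.191). Jarid2 + Aebp2 KO had the lowest Tbx3, 126, 145 and 109 CPM, below every WT library but not called (log2 fold change -0.35 ± 0.12, edgeR adjusted p = 0.0864). It was called in 3 of 11 alternatives, among them DESeq2 (adjusted p = 0.0373) and the fit without replicate 2 of Jarid2 + Aebp2 KO (edgeR adjusted p = 0.0372). Without strand in the library kit, reads of Tbx3 and of Tbx3os1 cannot be told apart where they overlap, nor those of Esrrb and Gm40483.

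Klf4 had 358, 338 and 289 CPM in Pcl1-3 + Jarid2 + Aebp2 KO and 375, 325 and 246 CPM in the non-core KO, against 271, 252.5 and 212.7 CPM in WT. The log2 fold changes were 0.42 ± 0.12 and 0.36 ± 0.12 (edgeR adjusted p = 0.0235 and 0.0284). The libraries of the non-core KO overlapped those of WT, while those of the other did not. The first call held in 6 of 11 alternatives. It was lost with only the 2 genotypes in the fit, without WT replicate 2 (0.0521) or 3 (0.155), or without its own replicate 1 (0.0912) or 2 (0.0721). The second call, in the non-core KO, held in 5 of 11. It was lost without the filter on low counts and with only the 2 genotypes in the fit. It was also lost without WT replicate 2 (0.0538) or 3 (0.158) or its own replicate 1 (log2 fold change 0.20, edgeR adjusted p = 0.236) or 2 (0.0973). Klf4 in Suz12 KO (309, 288 and 279 CPM) was above every WT library and was not called (log2 fold change 0.25 ± 0.12, edgeR adjusted p = 0.113). It was called there in 2 of 11 alternatives. Pcl1-3 KO (279 to 318 CPM), Pcl1-3 + Epop KO (277 to 288 CPM) and Pcl1-3 + Jarid2 KO (278 to 311 CPM) were also above every WT library, without a call. With the replicate number as a block, Klf4 was called in Pcl1-3 KO and Pcl1-3 + Jarid2 KO (edgeR adjusted p = 0.0443 and 0.0449).

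Esrrb was called in the non-core KO, with 673, 602 and 462 CPM, against 891.5, 817 and 854.5 CPM in WT. The groups did not overlap, the log2 fold change was -0.56 ± 0.11 (edgeR adjusted p = 0.000733), and the call held under all 11 alternatives. In Suz12 KO Esrrb had 785, 756 and 732 CPM, below every WT library and not called (log2 fold change -0.17 ± 0.11, 95% interval -0.40 to 0.05, edgeR adjusted p = 0.24). The non-core KO was below Suz12 KO (-0.39 ± 0.11, edgeR adjusted p = 0.00887), a call lost without replicate 3 of the non-core KO (-0.24, edgeR adjusted p = 0.0622). In the other 5 knockouts Esrrb ran from 689 to 962 CPM with no call. Among them, Jarid2 + Aebp2 KO (708 to 816 CPM) and Pcl1-3 + Jarid2 KO (689 to 781 CPM) also lay below every WT library.

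Klf5 had 153, 166 and 125 CPM in the non-core KO and 165, 172 and 171 CPM in Suz12 KO, against 215, 212 and 199 CPM in WT. All libraries of both knockouts were below WT. The non-core KO was called (log2 fold change -0.50 ± 0.14, edgeR adjusted p = 0.00979; 0.0606 without its replicate 3) and Suz12 KO was not (-0.30 ± 0.14, edgeR adjusted p = 0.0944). Fitted on those 2 genotypes alone, Suz12 KO was called in Klf5 as well (edgeR adjusted p = 0.0124).

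Tfcp2l1, a factor of the CP2 family downstream of STAT3, had its lowest mean in the non-core KO too, but with a wide spread. It had 984, 657 and 451 CPM there, against 1033, 882.5 and 877 CPM in WT. The log2 fold change was -0.42 ± 0.21 (95% interval -0.84 to 0.00, edgeR adjusted p = 0.141). Without replicate 1 of the non-core KO it was -0.76 (edgeR adjusted p = 0.00837), and without replicate 3 it was -0.18 (edgeR adjusted p = 0.552). Over all genotypes the mean log2 deviation of Tfcp2l1 from its genotype means was 0.26 in the replicates numbered 1 and -0.25 in those numbered 3. A pseudogene, LOC115487679, overlaps the gene.

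Nanog, a homeodomain factor that can sustain self-renewal without LIF when raised, stayed uncalled. It had 971, 1002 and 1077 CPM in the non-core KO and 778, 839.5 and 914 CPM in Suz12 KO, against 832, 1029 and 940.3 CPM in WT. The 95% interval of its log2 fold change was -0.15 to 0.39 in the non-core KO and -0.42 to 0.13 in Suz12 KO. Nanog has processed copies in the genome, and the sources used here do not give how reads shared with them were counted. Zfp42 had 317, 348 and 376 CPM in the non-core KO and 248, 301 and 242 CPM in Jarid2 + Aebp2 KO, its lowest mean, against 336, 337 and 331 CPM in WT. The log2 fold change of Zfp42 in Jarid2 + Aebp2 KO was -0.35 ± 0.13 (edgeR adjusted p = 0.119), with every library below WT. Zfp42 was also below every WT library in Suz12 KO (254 to 312 CPM) and Pcl1-3 + Jarid2 KO (296 to 304 CPM), without a call.

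Counted over the members, Suz12 KO had 2 that rose and 1 that fell, where 20.7% of all tested genes rose and 18.3% fell. The median size of the log2 fold change was 0.24 for the members and 0.39 for all genes. In the non-core KO 2 members rose and 4 fell, where 17.1% of genes rose and 15.8% fell, and the median sizes were 0.42 and 0.37. No member rose and 2 fell in Pcl1-3 KO, where 4.35% of genes rose and 4.35% fell. In Pcl1-3 + Epop KO 1 member fell, against 3.67% of genes that fell and 3.94% that rose. In Jarid2 + Aebp2 KO 2 fell, against 2.13% of genes that fell and 2.26% that rose. Pcl1-3 + Jarid2 KO had 1 member that rose and 2 that fell, against 9.26% and 7.91% of genes. Pcl1-3 + Jarid2 + Aebp2 KO had 3 that rose and 2 that fell, against 7.95% and 7.08% of genes. These comparisons share the WT libraries.

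The non-core KO was compared directly with Suz12 KO, which lacks a core subunit. Of the members, 3 fell (Nr0b1, Klf2 and Esrrb, with the values given above) and none rose, where 22.2% of genes fell and 20.8% rose. Prdm14, Tbx3 and Klf4, which had called rises in one or both of these knockouts against WT, were not called here, with log2 fold changes of -0.14 (95% interval -0.32 to 0.03), 0.02 (-0.21 to 0.24) and 0.11 (-0.13 to 0.35). Nanog was higher in every library of the non-core KO than in Suz12 KO, but was not called in this fit (0.27 ± 0.14, edgeR adjusted p = 0.126).

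Knockouts that differ by the loss of 1 further gene were then compared. With Jarid2 lost on top of Pcl1-3, Prdm14 was higher. It had 76.0, 76.8 and 72.6 CPM in Pcl1-3 + Jarid2 KO, against 58.3, 55.4 and 56.1 CPM in Pcl1-3 KO. The log2 fold change was 0.41 ± 0.09 (edgeR adjusted p = 0.0074; 0.112 without the filter on low counts). It was the 1 member called; 3.71% of genes rose and 2.56% fell. Nr0b1 was lower in every library, without a call (-0.24 ± 0.08, edgeR adjusted p = 0.0881).

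On loss of Aebp2 on top of Pcl1-3 + Jarid2, 0 members were called by edgeR or DESeq2. Of the 10 members 1, Nr0b1, had an unadjusted edgeR p under 0.05, as did 1306 of the 14650 tested genes. Nr0b1 was higher in every library of Pcl1-3 + Jarid2 + Aebp2 KO than of Pcl1-3 + Jarid2 KO (log2 fold change 0.21 ± 0.08, edgeR adjusted p = 0.362). Of all genes 0.341% rose and 0.56% fell. On loss of Epop on top of Pcl1-3, 0 members were called by edgeR or DESeq2. An unadjusted edgeR p under 0.05 was found for 0 members, against 210 of the 14650 tested genes. For Nr0b1 the 95% interval of that log2 fold change was -0.18 to 0.13 and for Esrrb -0.26 to 0.18. Of all genes 1 rose (0.00683%) and 0% fell.

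With Epop lost on top of Pcl1-3 + Jarid2 + Aebp2, 3 members were called lower. Nr0b1 had 43.3, 45.5 and 43.6 CPM in the non-core KO, against 64.0, 61.8 and 59.8 CPM in Pcl1-3 + Jarid2 + Aebp2 KO (log2 fold change -0.49 ± 0.08, edgeR adjusted p = 0.000355). Klf5 had 153, 166 and 125 CPM in the non-core KO, against 203, 207 and 239.9 CPM in Pcl1-3 + Jarid2 + Aebp2 KO (-0.55 ± 0.14, edgeR adjusted p = 0.013). Esrrb had 673, 602 and 462 CPM in the non-core KO, against 839, 766 and 717 CPM in Pcl1-3 + Jarid2 + Aebp2 KO (-0.42 ± 0.11, edgeR adjusted p = 0.019). For all 3 genes every library of the non-core KO lay below every library of the other knockout. Of all genes 5.79% rose and 5.45% fell. The call of Nr0b1 held under all 11 alternatives. That of Klf5 was lost without replicate 3 of the non-core KO (0.076) or of the other knockout (0.0601). That of Esrrb was lost without replicate 2 (0.0504) or 3 (log2 fold change -0.29, edgeR adjusted p = 0.0921) of the non-core KO or replicate 1 of the other (0.0987). Both were also lost with only these 2 genotypes in the fit.

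The effect of Epop loss was then compared between the 2 backgrounds, a test added after the values were seen. Nr0b1 was the 1 member whose effects differed, by a log2 value of -0.46 ± 0.11 (edgeR adjusted p = 0.0356; 2.09% of all genes). This call held in 5 of 17 alternatives and in 2 of the 12 fits that left out 1 library each, with adjusted p between 0.0056 and 0.368 over all alternatives. The effects on Klf5 and Esrrb differed by -0.47 ± 0.20 and -0.38 ± 0.16 and were not called (edgeR adjusted p = 0.292 and 0.3).

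**Figure D4:**
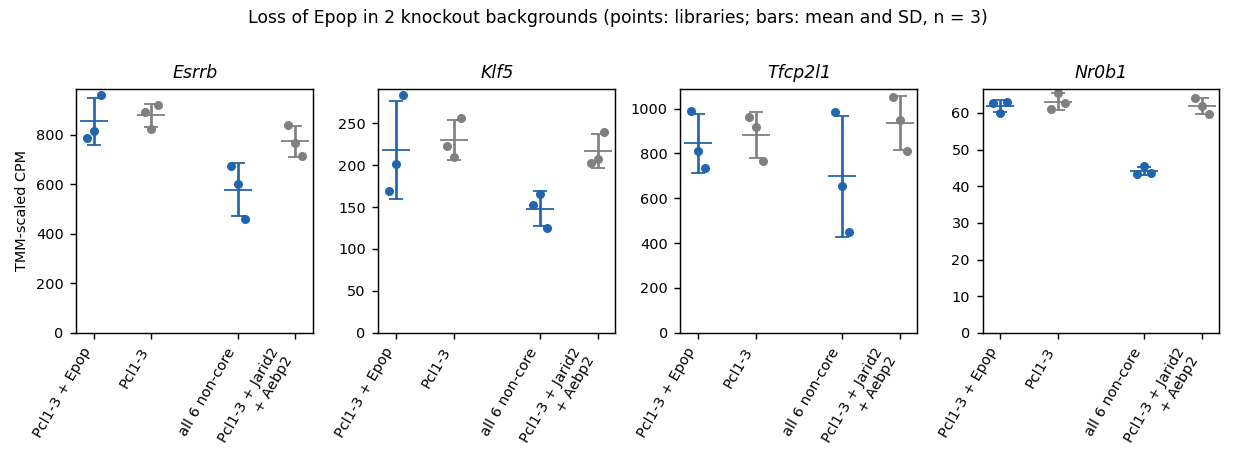
TMM-scaled CPM of Esrrb, Klf5, Tfcp2l1 and Nr0b1 in the 4 knockouts that differ by Epop, as libraries (points) with mean and SD of 3 (bars), each axis starting at 0. In each panel the left pair is Pcl1-3 + Epop KO and Pcl1-3 KO and the right pair the non-core KO and Pcl1-3 + Jarid2 + Aebp2 KO; Nr0b1 overlaps in the left pair and not in the right one.

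The joint loss of Jarid2 and Aebp2 was compared in the same way between the Pcl1-3 KO background and WT, also after the values were seen. Klf2 and Tbx3 differed, where 7.36% of all genes did. Klf2 averaged 156 ± 26.8 CPM in Pcl1-3 + Jarid2 + Aebp2 KO and 149 ± 23.99 CPM in Pcl1-3 KO, whereas it averaged 129.5 ± 36.6 CPM in Jarid2 + Aebp2 KO and 237 ± 9.37 CPM in WT (SD, n = 3 each). The difference between the 2 effects was 0.94 ± 0.28 on the log2 scale (edgeR adjusted p = 0.0446), held in 8 of 17 alternatives and in 3 of the 12 fits without 1 library (highest adjusted p 0.123, without Jarid2 + Aebp2 KO replicate 1). Tbx3 averaged 205 ± 17.8 CPM in Pcl1-3 + Jarid2 + Aebp2 KO and 164 ± 11.6 CPM in Pcl1-3 KO, whereas it averaged 127 ± 17.9 CPM in Jarid2 + Aebp2 KO and 161 ± 11.7 CPM in WT (SD, n = 3 each). The difference was 0.68 ± 0.16 (edgeR adjusted p = 0.016), held in 14 of 17 alternatives and lost without WT replicate 1 (edgeR adjusted p = 0.0594), Pcl1-3 KO replicate 1 (0.0543) or Jarid2 + Aebp2 KO replicate 3 (0.0657).

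The members did not move as 1 group across genotypes. Over the 8 genotype means of log2 CPM, Klf5 and Esrrb had a Pearson r of 0.89, Klf4 and Tbx3 of 0.88, and Klf5 and Tfcp2l1 of 0.79, while Klf4 and Nr0b1 had -0.77 and Nanog and Esrrb -0.65. These values describe 8 points that share a design and are given without a test. They were not the closest matches in the data: 147 tested genes had a higher r with Klf5 than Esrrb did, and 92 had a higher r with Klf4 than Tbx3 did. The closest matches of each member were IDs without a symbol here and are not named. Spread within genotypes also differed, with a median coefficient of variation of 3.43% for Nr0b1 and 3.92% for Prdm14, and of 16.6% for Klf2 and 15.7% for Tfcp2l1.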

How the data were processed

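RNA of 24 libraries was measured; 63 further samples are chromatin immunoprecipitations whose own signal was not analysed here. Per the labels' protocols, libraries were made with a TruSeq RNA kit, which does not mark strand. What the authors deposited for RNA are raw read counts, whole numbers for each Ensembl ID. Per the submitters' processing notes, the RNA tools were STAR and HTSeq and the immunoprecipitation tools Trimmomatic and Bowtie2, all on mm10; no version is stated. The deposited peak lists give positions in base pairs; the sources used here do not give their caller or pooling.

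The tests used edgeR 4.0.16 (R 4.3.3), on the 14650 of 55450 IDs that passed filterByExpr. TMM scaling, 1 mean per genotype over all 24 libraries, robust dispersions and the quasi-likelihood test were used, with Benjamini-Hochberg adjustment over all tested genes. The SE of a log2 fold change is its size divided by the square root of the F statistic, and intervals are 1.96 SE either side. Log2 CPM used a prior count of 2. DESeq2 1.42.0 was an alternative. The edgeR steps were tested on simulated counts with planted log2 changes of size 1 or more and no shared replicate effect. That test does not cover smaller changes or such an effect.

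A peak counted as near a gene if it overlapped the gene body extended by 1 kb, on RefSeq GRCm38.p6 gene positions. Promoter stretches are the 250 bases before a start, given for 7 of 10 members (not Klf5, Tbx3 or Prdm14). Named genes are the 10 members, each member with a peak within 1 kb, and genes of lists. The members and lists were chosen with earlier results of these data known. The 12 comparisons and their alternatives, 11 for each, are those in the report; 2 differences between effects were added after the values were seen, with 17 alternatives each.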

Additional observations from a re-analysis of the deposited data

Results flagged for a closer look

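Each of the following results stood out because a test of the difference between 2 effects passed the threshold. The change of Nr0b1 with loss of Epop was -0.49 in the Pcl1-3 + Jarid2 + Aebp2 KO background and -0.03 (95% interval -0.18 to 0.13) in the Pcl1-3 KO background, a log2 difference of -0.46 (edgeR adjusted p = 0.0356, called in 5 of 17 alternatives). The change of Klf2 on loss of Jarid2 and Aebp2 was different in the Pcl1-3 KO background and in WT, with a log2 difference of 0.94 (edgeR adjusted p = 0.0446, called in 8 of 17). The change of Tbx3 on the same loss differed between these backgrounds by 0.68 on the log2 scale (edgeR adjusted p = 0.016, called in 14 of 17). No cause was tested for any of them.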

How the results depend on the processing

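No result for a member changed sign while called. Of 1660 values for members under alternatives, 1551 kept their side of the threshold, 77 lost it and 32 passed it newly. Changes near 0 that were not called did not keep a direction: those of Esrrb in Pcl1-3 + Epop KO, Tfcp2l1 in Pcl1-3 + Jarid2 + Aebp2 KO and Tbx3 in the non-core KO against Suz12 KO each kept it in 5 of 11 alternatives. Scaling by DESeq2 size factors moved the median log2 fold change of all genes by 0.03 at most.

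The members called changed as follows. With only the genotypes compared in the fit, Suz12 KO against WT had 5 (3 with all 24 libraries) and Jarid2 + Aebp2 KO 1 (2). Pcl1-3 + Jarid2 + Aebp2 KO had 3 (5), the non-core KO against Pcl1-3 + Jarid2 + Aebp2 KO 1 (3) and the difference in Epop effects 0 (1). For Suz12 KO, 3640 of 13910 tested genes rose in that fit and 2944 fell. In Jarid2 + Aebp2 KO 445 of 12933 rose and 331 fell. In Pcl1-3 + Jarid2 + Aebp2 KO 1124 of 12889 rose and 1031 fell. Without the filter on low counts, Pcl1-3 + Epop KO had 2 (1), Jarid2 + Aebp2 KO 1 (2), Pcl1-3 + Jarid2 KO against Pcl1-3 KO 0 (1; DESeq2 gave 2) and the difference in Epop effects 0 (1).

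With the replicate block, Pcl1-3 + Epop KO had 2 members called, Jarid2 + Aebp2 KO 4 and the non-core KO against Suz12 KO 5 (3). Pcl1-3 + Jarid2 KO against Pcl1-3 KO had 2 and the difference in Jarid2 + Aebp2 effects 4 (2). In the non-core KO against Suz12 KO, 3847 of 14650 tested genes rose with the block and 3885 fell. In the non-core KO against WT 3285 rose and 3111 fell, and in Suz12 KO against WT 3694 and 3565. Calls gained with this block included Tfcp2l1 in the non-core KO against WT (edgeR adjusted p = 0.00179) and against Pcl1-3 + Jarid2 + Aebp2 KO (0.00434), Prdm14 in the non-core KO (0.0335), Tbx3 and Zfp42 in Jarid2 + Aebp2 KO (0.0335 and 0.0258), and Nanog and Zfp42 in the non-core KO against Suz12 KO (0.024 and 0.0418). Klf4 was also gained against WT in Suz12 KO, Pcl1-3 KO (edgeR adjusted p = 0.0443) and Pcl1-3 + Jarid2 KO (0.0449). Same-numbered libraries of different genotypes deviated together, with a median r of 0.26 over 84 pairs, of which 75 passed 0.1 (lowest 0.0315). Differently numbered libraries had a median r of -0.131 over 168 pairs, of which 11 passed 0.1. By this measure 24 of 24 libraries correlated best with their own number. The labels do not say what a number shares. The main fit leaves the number out, so some calls depend on that choice. The replicate block raised genes called to 2895 in Pcl1-3 KO (1274), 2730 in Pcl1-3 + Epop KO (1115), 2281 in Jarid2 + Aebp2 KO (643), 4052 in Pcl1-3 + Jarid2 KO (2516), 3851 in Pcl1-3 + Jarid2 + Aebp2 KO (2202), 2 in Pcl1-3 + Epop KO against Pcl1-3 KO (1), 1949 in Pcl1-3 + Jarid2 KO against Pcl1-3 KO (918), 432 on loss of Aebp2 (132), 3049 in the non-core KO against Pcl1-3 + Jarid2 + Aebp2 KO (1647), and 914 and 2745 in the Epop and Jarid2 + Aebp2 differences (306 and 1078).

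The fit without the filter on low counts tested 31394 IDs, against 14650 in the main fit, so its counts are out of a larger set. Genes called without this filter, in the same order, were 2001 in Pcl1-3 KO, 1810 in Pcl1-3 + Epop KO and 1444 in Jarid2 + Aebp2 KO. They were 20 on loss of Epop from Pcl1-3 KO, 391 on loss of Aebp2, and 699 and 1696 in the 2 differences. DESeq2 called 1052 in Jarid2 + Aebp2 KO, 3 on loss of Epop from Pcl1-3 KO, 242 on loss of Aebp2 and 507 in the Epop difference. With only the genotypes compared, 155 were called in Pcl1-3 + Epop KO, 3959 in Pcl1-3 + Jarid2 KO and 0 on loss of Epop from Pcl1-3 KO. The counts were 62 on loss of Aebp2, 937 in the non-core KO against Pcl1-3 + Jarid2 + Aebp2 KO and 89 in the Epop difference. These fits tested fewer IDs than the main one, from 12803 in Pcl1-3 + Epop KO to 13563 in the Epop difference.

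Leaving out 1 library, members called ran from 1 to 2 in Pcl1-3 KO, 0 to 2 in Jarid2 + Aebp2 KO and 2 to 3 in Pcl1-3 + Jarid2 + Aebp2 KO. They ran from 2 to 5 in the non-core KO against Suz12 KO and 1 to 5 against Pcl1-3 + Jarid2 + Aebp2 KO. The ranges were 0 to 1 in the Epop difference and 0 to 3 in the Jarid2 + Aebp2 difference. The 5 against Suz12 KO came without replicate 1 of the non-core KO, where 2871 of 15115 genes rose and 3502 fell. Genes called ran from 463 to 1514 in Pcl1-3 KO, 462 to 1831 in Pcl1-3 + Epop KO, 82 to 807 in Jarid2 + Aebp2 KO, 1436 to 2091 in Pcl1-3 + Jarid2 KO, 1391 to 2034 in Pcl1-3 + Jarid2 + Aebp2 KO, 0 to 1 on loss of Epop from Pcl1-3 KO, 414 to 952 in Pcl1-3 + Jarid2 KO against Pcl1-3 KO, 35 to 110 on loss of Aebp2, 1085 to 2077 in the non-core KO against Pcl1-3 + Jarid2 + Aebp2 KO, and 193 to 419 and 435 to 1600 in the Epop and Jarid2 + Aebp2 differences. The cause was not tested for any of these shifts.

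Members near a peak fell to 0 for SUZ12 and 0 for JARID2 when the peak had to lie within 1 kb of an end of the gene, since the Esrrb peaks are internal. The share of all genes fell from 24.2% to 20.7% for SUZ12 and from 14.3% to 11.6% for JARID2. For PCL2, members fell from 4 to 1 when peaks had to be at least 1 kb wide, and all genes from 42% to 22.7%. Each genotype had 3 libraries, and each member had 482 counts or more per library.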

Other observations

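Peaks within 1 kb were also counted for marker lists of other cell types, with no test between lists; 24.2% of all genes had a SUZ12 peak. SUZ12 peaks lay near 7 of 8 endoderm genes (not Lama1), 5 of 6 trophoblast genes, 5 of 5 mesoderm genes and 5 of 5 neural genes, near 2 of 8 feeder fibroblast genes and near 0 of 5 genes of 2-cell-like cells. Of 8 ES cell markers, Utf1 alone had a SUZ12 peak. Of 10 genes for PRC2 subunits, 4 had a PCL2 peak (Aebp2, Epop, Jarid2 and Phf19), against 42% of all genes. A SUZ12 peak lay near 1 of the 10, Phf19.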
